A study of Homo sapiens with 2 samples.

Results

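The genes described here encode the nuclear pore complex and the soluble machinery that carries cargo through it. They were taken from the expression table by Entrez gene number and RefSeq symbol as 56 named genes: 28 nucleoporins, the protein subunits of the pore, and 28 importins, exportins and Ran cycle genes. All 56 were listed among the 16021 genes or gene models of the table, and all 56 averaged at least 1 FPKM across the libraries, the level required for counts and medians. FPKM counts sequenced fragments per length of transcript and per size of the library, so levels of different genes can be set side by side. RNA came from HGC-27 cells, a human gastric carcinoma line, transduced with lentivirus carrying an shRNA against the RNA helicase gene DDX5, or a non-targeting shRNA as control. Both cultures received the virus and puromycin, which was added 48 h after transduction, and cells were collected 1 week later. Each shRNA was represented by 1 library, so no p-value or standard error can be given, and the spread between cultures was not measured.

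Nuclear pores are built from stacked rings of scaffold proteins anchored in the nuclear envelope, with disordered proteins rich in phenylalanine-glycine repeats filling the channel. Importins and exportins of the karyopherin family bind cargo, pass through these repeats, and load or release cargo according to the nucleotide bound to the small GTPase Ran. Ran is kept in its GTP form in the nucleus by its exchange factor on chromatin and in its GDP form in the cytoplasm by its activating protein. Several of the same proteins also act on the mitotic spindle and kinetochores when the envelope is dismantled in dividing cells.

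DDX5, the gene targeted by the shRNA, stood at 50.78 FPKM in the DDX5 shRNA library and at 170.5 FPKM in the non-targeting library, a log2 ratio of -1.73 (here and throughout, of FPKM + 1, DDX5 shRNA over non-targeting). Depth was estimated from steps between low FPKM values of short genes. The best fit was about 1.49e+07 fragments in the DDX5 shRNA library and 1.53e+07 in the non-targeting library, both approximate. At that depth the least covered member, KPNA5, came to about 232 and 328 fragments, and the next lowest, NUP35, to about 595 and 718. Of 5 epithelial markers, 4 were listed, at 0.07 to 1.31 FPKM in the DDX5 shRNA library and 0.04 to 5.24 in the non-targeting library. KRT8 was the highest, at 1.31 and 5.24 FPKM, with EPCAM, CDH1 and KRT18 below 0.5 FPKM in both. VIM, a mesenchymal marker, stood at 1270.59 and 1583.62 FPKM. The other mesenchymal markers were low, CDH2 at 0 and 0.07 FPKM and FN1 at 5.99 and 4.76 FPKM. The 5 fibroblast markers summed to 534.86 FPKM in the DDX5 shRNA library and 475.74 FPKM in the non-targeting library, with DCN at 140.68 and 68.13 FPKM, COL1A2 at 6.02 and 2.52 FPKM, LUM at 120.49 and 111.96 FPKM, COL1A1 at 260.5 and 285.04 FPKM and PDGFRA at 7.17 and 8.09 FPKM. Only CD68 among the 2 immune and 1 endothelial markers listed averaged at least 1 FPKM (1.02 and 1.29 FPKM). KRT19, PTPRC, CD3E, PECAM1 and CDH5 were looked up by RefSeq symbol and were not found among the listed genes. The part of these marker levels in the results below was not tested.

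Most nuclear pore and transport genes were lower in the DDX5 shRNA library, by a modest amount. Of the 56 genes, 51 had a ratio below 0, where 47.8% of all 11413 genes past the expression level did, and the median log2 ratio was -0.44 against 0.024 for all genes. Only KPNA2 and NUP188 were at least 2-fold lower (2 of 56, where 2.26% of all genes were), and none was at least 2-fold higher (4.19% of all genes). At 1.5-fold, 17 were lower, where 10.1% of all genes were, and 1 was higher, the tRNA exporter gene XPOT, where 13.1% of all genes were. The 56 genes summed to 2537 FPKM in the DDX5 shRNA library and 3518 FPKM in the non-targeting library, which is 0.426% and 0.641% of all FPKM. These are levels per library from bulk RNA, in which fewer cells of a type and less RNA per cell cannot be told apart. The 4 other genes above 0 (AAAS, IPO8, KPNA4 and NUP43) fell below 0 when both libraries were rescaled to the same total, which left XPOT as the only member above 0. That rescaling shifted the median of all genes by -0.10, put 56.7% of all genes below 0, and turned the split of all genes from 258 at least 2-fold lower and 478 at least 2-fold higher into 379 and 379. At 1.5-fold it turned 1158 lower and 1492 higher into 1630 and 1154. After correction for transcript length and GC content, 49 members were below 0, against 49.8% of all genes, with AAAS below 0 and IPO13, NUP58 and TNPO2 above it.

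**Figure D1:**
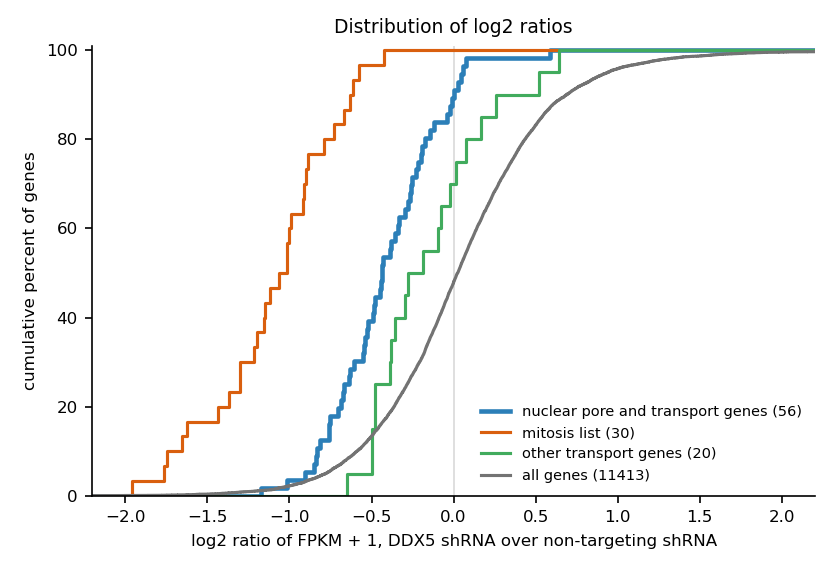
Cumulative percent of genes (vertical axis) at or below each log2 ratio of FPKM + 1, DDX5 shRNA over non-targeting shRNA (horizontal axis), for the 56 nuclear pore and transport genes, 30 mitosis genes, 20 other transport genes and all 11413 genes that averaged at least 1 FPKM. The curve of the 56 genes crosses the midpoint at -0.44, left of all genes at 0.024 and right of the mitosis list at -1.04.

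Genes of cell division were lower in the same pair of libraries. MKI67, the proliferation marker, had 9.38 FPKM in the DDX5 shRNA library and 39.39 FPKM in the non-targeting one. All 30 genes of a mitosis list, chosen with earlier results of these data known, had a ratio below 0, where 47.8% of all genes did. Their median was -1.04. In that list 18 genes were at least 2-fold lower (2.26% of all genes) and 28 at least 1.5-fold lower (10.1% of all genes). The part of this difference in the levels of nuclear pore and transport genes was not tested.

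The promoters of the genes at the ends of the range are shown because KPNA2 and NUP188 are the members past 2-fold lower and XPOT is the member past 1.5-fold higher. Each runs from 250 bases before to 50 bases after the RefSeq transcription start in build GRCh38.p14, 5′ to 3′ on the strand of the gene, which is the plus strand for all of them. KPNA2 lies at chr17:68035485-68035784, NUP188 at chr9:128947449-128947748 and XPOT at chr12:64404142-64404441. Capitals mark matches on either strand to CCAAT (the CCAAT box), CACGTG (the E-box), TTTGAA (the cell cycle homology region, CHR), TTGGCGC or TTCGCGC or TTCCCGC (E2F) and GCATGCG (NRF1), none of which contains another.
KPNA2: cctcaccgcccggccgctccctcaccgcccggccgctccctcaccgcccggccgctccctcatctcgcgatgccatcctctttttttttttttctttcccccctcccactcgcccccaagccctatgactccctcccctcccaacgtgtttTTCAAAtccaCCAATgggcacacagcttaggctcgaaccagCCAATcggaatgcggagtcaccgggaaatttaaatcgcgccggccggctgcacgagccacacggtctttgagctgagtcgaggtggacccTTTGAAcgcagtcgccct
NUP188: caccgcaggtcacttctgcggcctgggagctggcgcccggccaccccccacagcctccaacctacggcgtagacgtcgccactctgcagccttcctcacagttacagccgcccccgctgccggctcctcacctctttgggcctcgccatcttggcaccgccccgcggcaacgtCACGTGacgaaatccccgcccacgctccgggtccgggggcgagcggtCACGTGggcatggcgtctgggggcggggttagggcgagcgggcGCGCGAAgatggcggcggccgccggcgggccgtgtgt
XPOT: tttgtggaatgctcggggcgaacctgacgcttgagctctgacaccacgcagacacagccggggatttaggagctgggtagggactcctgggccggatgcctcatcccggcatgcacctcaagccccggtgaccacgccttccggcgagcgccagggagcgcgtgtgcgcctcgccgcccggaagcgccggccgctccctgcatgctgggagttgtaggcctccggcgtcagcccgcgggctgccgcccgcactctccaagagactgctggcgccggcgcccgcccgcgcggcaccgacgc
KPNA2 held a pair of CCAAT boxes, starting 89 and 58 bases before the start, and a CHR match on each side of the start. NUP188 held a pair of E-boxes, starting 77 and 30 bases before the start, and an E2F match within its first transcribed bases. XPOT held no match to any of these letters in this window and was 1 of 9 such members of 49, with RANBP2, which was at least 1.5-fold lower, among the others.

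Promoter entries were found for 49 of the 56 genes; AHCTF1, KPNA4, KPNA5, KPNB1, NUP43, RANBP1 and XPO7 have none. E2F letters occurred in 18 of the 49 (36.7%), against 11.2% of all 27305 promoters of the same length and 18.9% of those of genes past the expression level. NRF1 letters occurred in 6 (12.2%, against 4.13% and 6.84%), CHR letters in 11 (22.4%, against 15.4% and 9.49%) and the E-box in 7 (14.3%, against 7.43% and 10.4%). The CCAAT box was about as common as elsewhere, in 20 (40.8%, against 35.7% and 37.4%). Among 25 mitosis genes with a promoter entry, 20 held a CCAAT box, 18 a CHR match and 3 E2F letters. Among the 15 members at least 1.5-fold lower with an entry, 8 held a CCAAT box and 5 E2F letters. A CHR match was held by 4 of them, an E-box by 3 and NRF1 letters by 1. Both a CCAAT box and a CHR match were held by 6 members. Of these, KPNA2, NUP205 and CSE1L were at least 1.5-fold lower and NUP98, NUP35 and NUP37 were not. The shares of all promoters with both matches, or with no match, were not computed. These matches are letters in a window and were not tested against the ratios.

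The outer ring of the pore is built from Y-shaped complexes and had a median log2 ratio of -0.46 over its 8 genes. Of these, 7 were below 0, where 47.8% of all genes were. AHCTF1, which encodes ELYS and seeds pore assembly on chromatin after mitosis, stood at 17.09 FPKM in the DDX5 shRNA library and 31.4 FPKM in the non-targeting library, 1.84-fold lower. Of the short sequence windows of the AHCTF1 transcript, 48.2% also occur in other annotated genes. The division of reads between AHCTF1 and those genes is therefore uncertain. NUP85 stood at 21.31 and 34.56 FPKM, 1.62-fold lower. These were the outer ring genes past 1.5-fold, where 10.1% of all genes were at least 1.5-fold lower.

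The stem and arm subunits NUP107, NUP133 and NUP160 kept close to each other. NUP107 stood at 21.64 FPKM in the DDX5 shRNA library and 30.52 FPKM in the non-targeting library, NUP133 at 18.36 and 25.16 FPKM, and NUP160 at 26.23 and 34.42 FPKM. SEH1L, a beta-propeller subunit shared with a regulator of mTORC1, stood at 29.91 and 43.97 FPKM. The small propeller subunits NUP37 and NUP43 were level between the libraries, at 25.66 and 25.67 FPKM for NUP37 and at 13.54 and 12.79 FPKM for NUP43. Outer ring genes therefore spanned log2 ratios from -0.84 to 0.076.

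The inner ring, the scaffold between the membrane and the channel, had the lowest median of the 10 groups, at -0.64. Its median rests on 5 genes, and that of the nuclear basket was close, at -0.55. Of the 5 inner ring genes, 5 were below 0 (47.8% of all genes) and 3 at least 1.5-fold lower (10.1% of all genes). NUP188 stood at 35.22 FPKM in the DDX5 shRNA library and 72.18 FPKM in the non-targeting library, a 2.05-fold lower level and a log2 ratio of -1.01. Its relative NUP205, the other large solenoid of the ring, stood at 26.35 and 50.13 FPKM, 1.90-fold lower. With both libraries at the same total NUP205 also passed 2-fold, and with a pseudocount of 5 FPKM NUP188 no longer did. NUP155, which links ring and membrane, stood at 27.97 and 44.04 FPKM, 1.57-fold lower. NUP93, the organiser of the inner ring, was less far apart, at 38.81 and 54.92 FPKM, and NUP35 least, at 24.5 and 28.67 FPKM. Summed over the ring, FPKM in the DDX5 shRNA library was 61.2% of the non-targeting level. The other nucleoporin groups ran from 67.0% (nuclear basket) to 85.7% (cytoplasmic face), with 72.9% for the outer ring. Importin alpha genes were lower by this sum, at 50.6%.

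Channel nucleoporins carry the phenylalanine-glycine repeats that form the permeability barrier. NUP62, the central member, stood at 29.59 FPKM in the DDX5 shRNA library and 48.15 FPKM in the non-targeting library, 1.63-fold lower. Its partners in the same trimer were closer to level, NUP54 at 30.62 and 37 FPKM and NUP58 at 25.33 and 27.64 FPKM. NUP98, the main barrier protein and also the source of a scaffold subunit made by self-cleavage, stood at 27.17 and 37.16 FPKM. The 4 genes had a median of -0.35.

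The membrane ring anchors the pore in the envelope. Its 3 genes were all below 0, where 47.8% of all genes were, with a median of -0.48. NDC1, needed for insertion of pores, stood at 20.51 FPKM in the DDX5 shRNA library and 35.36 FPKM in the non-targeting library, 1.72-fold lower. POM121 stood at 24.24 and 34.32 FPKM. Its near copy POM121C stood at 28.1 and 36.32 FPKM, and 35.0% of the 50-base windows of POM121 occur in other annotated genes, so the division of reads between them is uncertain. NUP210, whose protein is abundant in some cell types and absent in others, stood at 18.17 and 21.82 FPKM.

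On the cytoplasmic face, where export complexes are taken apart, 4 of 5 genes were below 0 (47.8% of all genes). The median was -0.36. RANBP2, the large filament protein and SUMO ligase that docks RanGAP, stood at 8.58 FPKM in the DDX5 shRNA library and 15.18 FPKM in the non-targeting library, 1.77-fold lower. It shares 26.7% of its windows with RGPD genes, of which 5 were listed, summing to 5.33 and 5.67 FPKM. NUP88 stood at 20.2 and 27.8 FPKM and its partner NUP214 at 11.54 and 15.07 FPKM. RAE1, an mRNA export factor that binds NUP98, stood at 26.99 and 34.47 FPKM. AAAS, which encodes ALADIN, was level, at 74.99 and 73.48 FPKM, and was the highest nucleoporin in both libraries.

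The nuclear basket hangs into the nucleoplasm, and its 3 genes had a median of -0.55. TPR, the coiled-coil backbone of the basket, stood at 14.29 FPKM in the DDX5 shRNA library and 26.24 FPKM in the non-targeting library, 1.84-fold lower. NUP153, which tethers TPR, stood at 27.04 and 39.92 FPKM. NUP50, a mobile subunit that helps to release importin alpha cargo, stood at 20.64 and 26.28 FPKM. None of the basket genes was higher in the DDX5 shRNA library.

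**Figure D2:**
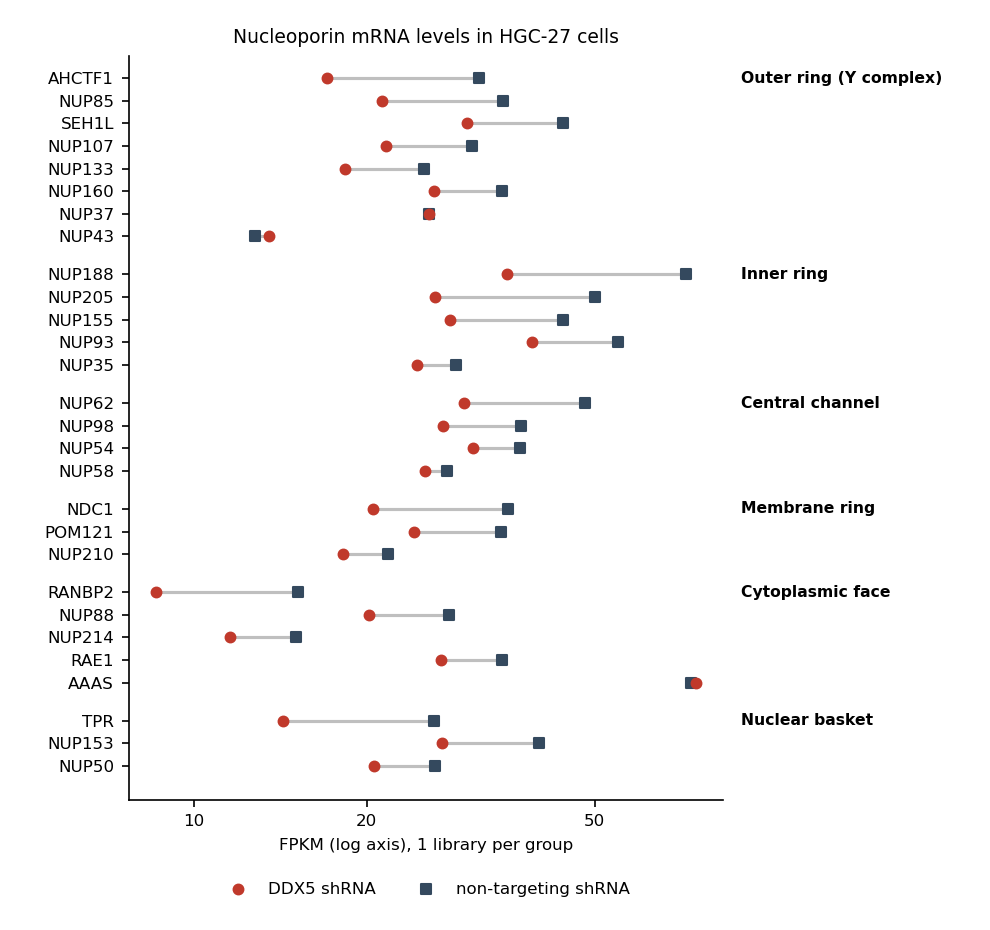
FPKM of the 28 nucleoporin genes (log axis) in the DDX5 shRNA library (circles) and the non-targeting library (squares), 1 library per group, by place in the pore. Circles lie left of squares for all genes but NUP43 and AAAS (for NUP37 they coincide), and the longest gap is that of NUP188 (35.22 and 72.18 FPKM).

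Importin alpha proteins are the adaptors that read classical nuclear localisation signals, and KPNA2 dominated them. KPNA2 stood at 131.12 FPKM in the DDX5 shRNA library and 296.54 FPKM in the non-targeting library, 2.26-fold lower, the lowest ratio of the 56 genes (log2 -1.17) and one that 1.18% of all genes went below. KPNA3 stood at 24.88 and 39.04 FPKM, 1.57-fold lower. The other members differed little, with KPNA1 at 10.2 and 12.75 FPKM, KPNA6 at 7.79 and 8.71 FPKM and KPNA4, the closest relative of KPNA3, at 11.87 and 11.35 FPKM. KPNA5 was the lowest gene of the 56, at 1.38 and 1.89 FPKM, and its ratio is held near 0 by the added 1 FPKM.

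KPNA2 supplied most of the family's summed level. The 6 genes summed to 187.24 FPKM in the DDX5 shRNA library and 370.28 FPKM in the non-targeting library, 50.6% of the non-targeting level. KPNA2 made up 70.0% of that sum in the DDX5 shRNA library and 80.1% in the non-targeting library, whereas KPNA4 made up 6.34% and 3.07%. KPNA2 ranked 5 by level among the 56 genes in the DDX5 shRNA library and 2 in the non-targeting library. Of its windows, 17.8% occur in other annotated genes, none of them in another protein-coding transcript.

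**Figure D3:**
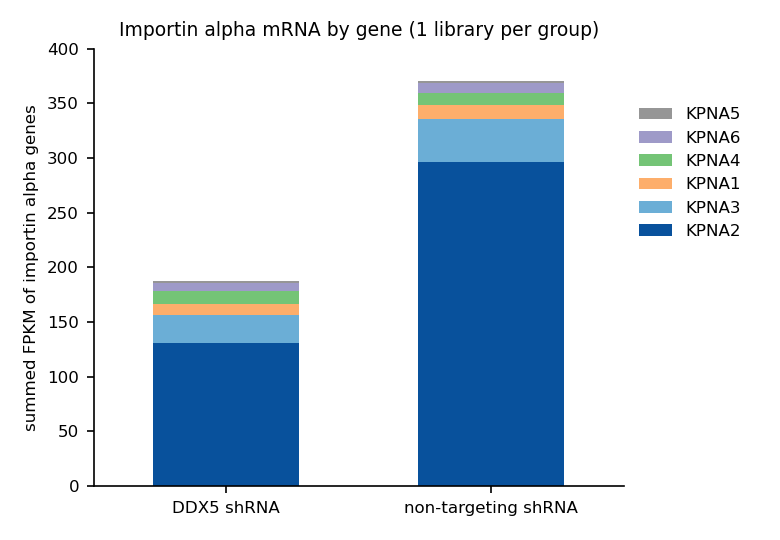
Summed FPKM of the 6 importin alpha genes (vertical axis, from 0) in the DDX5 shRNA library and the non-targeting library, 1 library per group, with each segment 1 gene. The columns reach 187.24 and 370.28 FPKM, and the KPNA2 segment accounts for 131.12 and 296.54 FPKM of them.

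Import receptors of the importin beta family bind cargo or adaptors and carry them inward. Of 11 genes, 10 were below 0 (47.8% of all genes) and 3 were at least 1.5-fold lower (10.1% of all genes). The median of the 11 was -0.23. TNPO1, the receptor of many RNA-binding proteins with a proline-tyrosine signal, stood at 23.37 FPKM in the DDX5 shRNA library and 42.89 FPKM in the non-targeting library, 1.84-fold lower. Its close paralog TNPO2 was level at 66.13 and 67.95 FPKM, and the level of TNPO1 relative to TNPO2 was 0.353 in the DDX5 shRNA library and 0.631 in the non-targeting library. IPO4, a histone importer, stood at 33.91 and 57.76 FPKM, 1.70-fold lower, but 95.3% of its windows also occur in an overlapping annotated locus, AL136295.4. IPO5, which imports ribosomal proteins and histones, stood at 50.64 and 81.05 FPKM, 1.60-fold lower.

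KPNB1, importin beta itself and the partner of importin alpha, differed less, at 230.82 FPKM in the DDX5 shRNA library and 271.16 FPKM in the non-targeting library. The level of KPNA2 relative to KPNB1 was therefore 0.568 in the DDX5 shRNA library and 1.09 in the non-targeting library. IPO7 stood at 85.04 and 122.87 FPKM, and its paralog IPO8 at 16.17 and 15.62 FPKM. IPO11 stood at 10.2 and 15.1 FPKM. The remaining receptors were close to level, with IPO9 at 18.06 and 20.55 FPKM, IPO13 at 14.31 and 14.55 FPKM and TNPO3, which imports SR splicing factors, at 26.09 and 26.32 FPKM.

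The exportins held the only member past 1.5-fold higher. XPOT, which carries mature tRNA to the cytoplasm, stood at 123.11 FPKM in the DDX5 shRNA library and 81.6 FPKM in the non-targeting library, 1.51-fold higher, with 10.8% of its windows in other annotated genes. Its log2 ratio of 0.59 lay at the 1.5-fold limit and fell short of it at the same total, with either centring and with a pseudocount of 5 FPKM, while it stayed above 0. CSE1L, which returns importin alpha to the cytoplasm, stood at 81.19 and 143.6 FPKM, 1.77-fold lower. XPO1, the main exporter of proteins with leucine-rich signals, stood at 100.86 and 154.35 FPKM, 1.53-fold lower.

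Levels of XPOT and XPO1 were in the opposite order in the libraries: the level of XPOT relative to XPO1 was 1.22 in the DDX5 shRNA library and 0.529 in the non-targeting library. XPO4, an exporter of eIF5A, stood at 7.83 and 10.92 FPKM. XPO6, which removes actin from the nucleus, stood at 28.03 and 37.01 FPKM, and XPO7 at 31.48 and 37.85 FPKM. The 6 exportins had a median of -0.41, with 5 below 0, where 47.8% of all genes were.

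Ran cycle genes were the most highly expressed group by median and by sum. All 5 were below 0, where 47.8% of all genes were, with a median of -0.45. RANBP1, a cytoplasmic partner of RanGTP that assists its hydrolysis, was the highest of the 56 genes in both libraries, at 239.19 FPKM in the DDX5 shRNA library and 389.65 FPKM in the non-targeting library, 1.63-fold lower. RAN stood at 152.5 and 208.66 FPKM and RANGAP1, the activating protein, at 35.39 and 52.4 FPKM. RCC1, the exchange factor on chromatin, differed less, at 84.55 and 97.12 FPKM, as did NUTF2, the carrier that brings RanGDP back to the nucleus, at 183.96 and 210.09 FPKM. RANBP1 was the only gene of the cycle past 1.5-fold, where 10.1% of all genes were at least 1.5-fold lower. Of the windows of RANBP1, 17.9% occur in other annotated genes.

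**Figure D4:**
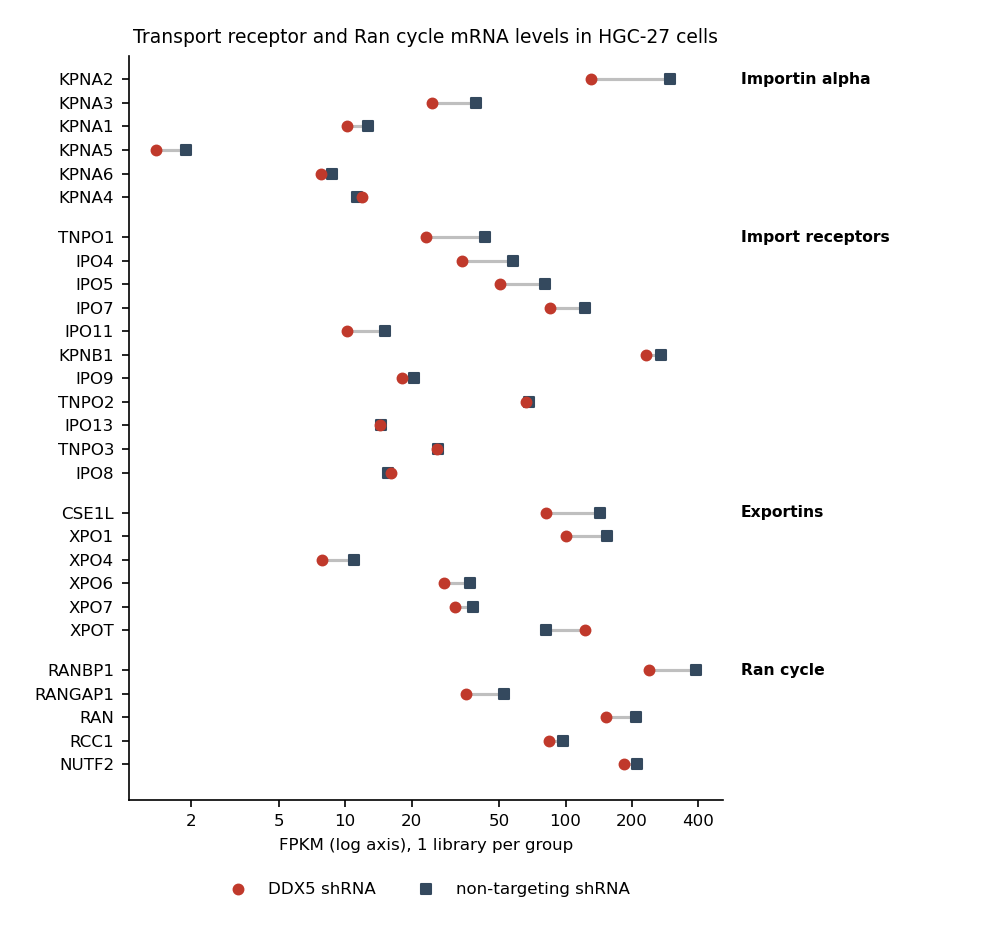
FPKM of the 28 transport receptor and Ran cycle genes (log axis) in the DDX5 shRNA library (circles) and the non-targeting library (squares), 1 library per group, by family. KPNA2 has the longest gap to the left (131.12 and 296.54 FPKM), and XPOT is the one gene with a clear gap to the right (123.11 and 81.6 FPKM).

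Nucleoporins and soluble transport genes had similar ratios as sets, with medians of -0.46 and -0.34. Below 0 were 26 of 28 nucleoporins and 25 of 28 transport genes, where 47.8% of all genes were. The 10 group medians ran from -0.64 to -0.23, and the ratios within a group spanned from 0.50 log2 units in the nuclear basket to 1.40 in the exportins. Members were longer transcripts than most, with a median of 5220 bases against 3450 for all genes with a known length. Across the 56 genes the Spearman correlation of the log2 ratio with transcript length was -0.071 and with mean FPKM -0.29, against -0.067 and -0.098 across all genes, given as descriptions since genes share the same pair of libraries.

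**Figure D5:**
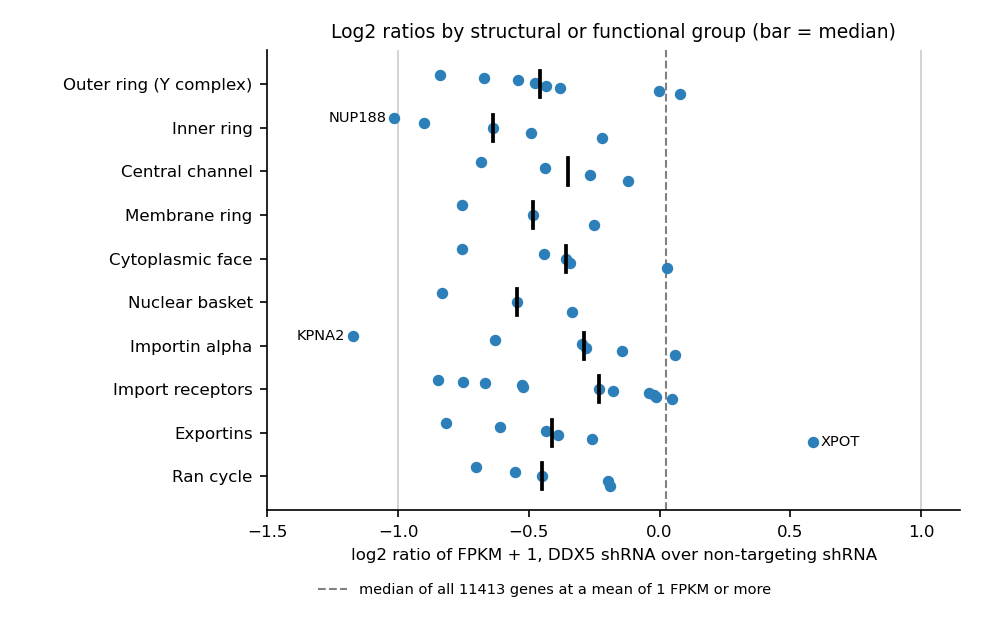
Log2 ratio of FPKM + 1, DDX5 shRNA over non-targeting shRNA (horizontal axis), for each of the 56 genes by group, with the group median as a bar, the median of all genes as a dashed line and 2-fold as grey lines. All group medians lie left of the dashed line, from -0.64 for the inner ring to -0.23 for the import receptors, and only KPNA2 and NUP188 pass the 2-fold line.

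Of 23 other transport genes, 20 averaged at least 1 FPKM. Of these 20, 14 were below 0, where 47.8% of all genes were, and the median of the 20 was -0.23. PHAX, an adaptor for snRNA export, was the single gene at least 1.5-fold lower, at 8.98 FPKM in the DDX5 shRNA library and 14.65 FPKM in the non-targeting library. SNUPN, the import adaptor for snRNPs, was the single gene at least 1.5-fold higher, at 21.17 and 13.23 FPKM. These adaptors serve opposite steps of snRNP maturation, export of the snRNA and return of the assembled particle. Single genes past 1.5-fold in each direction among 20 are below the share of all genes that passed it (10.1% lower and 13.1% higher).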

How the data were processed

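RNA sequencing was done on 1 library per shRNA. The authors deposited 1 table with FPKM values per gene in a column for each library, per the file headers. Per the submitters' processing notes the build was hg19 and the tools were RSEM 1.2.8, Bowtie2 and HISAT, with no roles named. Annotation, filters and strand setting: not given in the sources used here. Columns were assigned by sample title. RefSeq names (GRCh38.p14) matched 15289 of 16021 rows.

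Log2 ratios of FPKM + 1 were computed in Python 3.11.15 (pandas 2.3.3, numpy 2.4.6, scipy 1.17.1), which understates differences of low genes; folds given for single genes are ratios of deposited FPKM. Genes that averaged at least 1 FPKM entered counts and medians. No test was possible with 1 library per group, so calls were rules of size, 2-fold and 1.5-fold on FPKM + 1. The calculation was also run on simulated data with planted changes of 2-fold or more. No 1.5-fold change was planted, so that run does not show how well such changes are called. Transcript length, GC content and shared windows (50 bases, every 10 bases) came from the longest coding GENCODE 29 transcript. Depth was estimated from the steps of 104 short genes per library. Of these, 61.5% (DDX5 shRNA) and 66.3% (non-targeting) fell within 0.15 of a whole step at the best-fitting depth. A step fixed beforehand would give 30%, and picking the best-fitting depth raises the share. Fragment numbers of members use full transcript length and can be too high.

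All 56 genes are named. Members, groups, the mitosis list and the list of other transport genes were chosen with earlier results of these data known. Alternatives were pseudocounts of 0.1 and 5 FPKM, no filter, a filter at 5 FPKM, the same total, centring on the median, centring on a trimmed mean (30% off each tail), and correction for length and GC content. Leaving out members that share at least 25% of their windows was added after the data were seen. Protein sequences were not used here.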

Additional observations from a re-analysis of the deposited data

How the results depend on the processing

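No paired analysis was possible because each shRNA had 1 library, and no library could be left out. Over the 8 alternatives in scaling, filter, pseudocount and correction, the medians of all 10 groups stayed below 0. Each of the 56 genes moved by less than the robust SD of genes at its expression level. KPNA5 had no value under the filter at 5 FPKM. That SD is a spread between genes, not an error of a gene's ratio. Changing the filter cannot move a ratio, and centring or rescaling moves all genes nearly alike. Moves below the SD therefore say little about how firm a ratio is. At the same total the median of the 56 genes was -0.55, and 25 genes were at least 1.5-fold lower, against 14.3% of all genes. With a pseudocount of 5 FPKM, 1 gene was at least 2-fold lower, against 0.894% of all genes. The count at least 1.5-fold higher was 0 with a pseudocount of 5 FPKM (6.63% of all genes), at the same total (10.1%), and with centring on the median (12.1%) or the trimmed mean (12%). Without POM121, RANBP2, AHCTF1 and IPO4, which share sequence with other annotated genes, 47 of 52 genes were below 0, 14 were at least 1.5-fold lower and the median was -0.41. Depth limits KPNA5 most, and the variation between cultures is unknown for every gene.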

Other observations

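By chromosome in the RefSeq annotation, 6 genes lay on chromosome 12 (XPOT, IPO8, AAAS, NUP37, RAN and NUP107). Of these, 3 were below 0, among them NUP37, which was level at -0.0005. The median log2 ratio of the 6 was 0.014, against 0.045 for all 608 genes on that chromosome past the expression level. The 8 genes on chromosome 1 were all below 0, with a median of -0.32 against 0.0049 for 1125 genes. The 4 genes on chromosome 17, KPNA2, KPNB1, NUP85 and NUP88, were all below 0, with a median of -0.56 against 0.035 for 696 genes. The 4 genes on chromosome 13, IPO5, KPNA3, XPO4 and NUP58, were also all below 0, with a median of -0.53 against -0.017 for 189 genes. Over all chromosomes, 47.8% of all genes past the expression level were below 0. The chromosomes named were picked because they hold at least 4 of the 56 genes, and no test was made.

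Relative levels of genes whose products act together were computed within each library for a few pairs, chosen with the values known and with no test. The level of CSE1L relative to its cargo gene KPNA2 was 0.619 in the DDX5 shRNA library and 0.484 in the non-targeting library. The level of RANGAP1 relative to RCC1, which act at opposite ends of the Ran cycle, was 0.419 in the DDX5 shRNA library and 0.540 in the non-targeting library. The level of NUP205 relative to its ring partner NUP93 was 0.679 in the DDX5 shRNA library and 0.913 in the non-targeting library. NUP188 relative to NUP205 was 1.34 in the DDX5 shRNA library and 1.44 in the non-targeting library. In the same order of libraries, RANBP1 relative to RAN was 1.57 and 1.87, KPNB1 relative to RAN was 1.51 and 1.30, and XPO1 relative to KPNB1 was 0.437 and 0.569. Ratios within a library do not depend on its scaling.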
